A study of Mus musculus with 5 samples.

Results

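Secondary follicle granulosa cells were picked out of single-cell RNA libraries of whole C57BL6/J mouse ovaries by the transcripts they carried. A cell counted as a member when it had at least 1 UMI (a tagged RNA molecule) of 2 or more of the 3 stage genes Shbg, Pla2g1b and Lama3, at least 5 UMIs each of Amh and Inha, at most 3 of 6 primary follicle genes (Kctd14, Wnt6, Hamp2, Gldn, Cited4 and Ifitm1), and none of the mitotic genes Ube2c and Ccnb1, the aromatase gene Cyp19a1 or the stromal gene Dcn. This left 816 cells of the 48163 deposited and of the 39967 with at least 1000 detected genes and under 15% mitochondrial UMIs. The members numbered 177 at 2 wk, 383 at 3 wk, 100 at 4 wk, 55 at 5 wk and 101 at 6 wk.

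The study followed untreated wild-type ovaries through the ages at which the first follicles to grow, wave 1, are lost and follicles of later waves take their place. Ovaries were dissociated with trypsin, live cells were sorted with a dead-cell dye, and 1 library was made at each age. The number of mice behind a library was not given in the sources used here. The libraries held 124938004 UMIs at 2 wk, 93438618 at 3 wk, 117666094 at 4 wk, 107071492 at 5 wk and 144609431 at 6 wk.

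With 1 library per age no difference between ages could be tested. Levels are CPM, the summed UMIs of a gene per 1000000 summed UMIs of the same cells, taken library by library, intervals are exact 95% intervals (Poisson for CPM, binomial for shares, conditional on the summed count for ratios), and all of them cover counting error only. The libraries of 2, 3 and 4 wk were counted with Cell Ranger 3.1.0 and those of 5 and 6 wk with 6.0.1, so age and software version cannot be told apart between 4 and 5 wk.

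A secondary follicle is an oocyte surrounded by several layers of granulosa cells, inside a basement membrane and with theca cells gathering outside it. Its granulosa cells feed the oocyte through gap junctions, secrete anti-Müllerian hormone and inhibin, and divide quickly. They become responsive to follicle-stimulating hormone before the antral cavity forms, and only later express aromatase and the luteinizing hormone receptor.

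Members made up 2.28% of the filtered cells at 2 wk (interval 1.96 to 2.64), 5% at 3 wk (4.52 to 5.51), 1.09% at 4 wk (0.888 to 1.32), 0.839% at 5 wk (0.632 to 1.09) and 1.14% at 6 wk (0.933 to 1.39). The share was highest at 3 wk, second at 2 wk and lower at the other three ages, whose intervals overlapped. The share at 2 wk was 2.72 times that at 5 wk (2.00 to 3.75), and the share at 3 wk was 5.96 times that at 5 wk (4.48 to 8.06). Between 5 and 6 wk the ratio was 1.36 with an interval that included no difference (0.973 to 1.93). That order turned when the filter was under 10% mitochondrial UMIs and at least 1500 genes. Shares were then 0.752% at 5 wk (0.544 to 1.01) and 0.698% at 6 wk (0.525 to 0.910). Median depth per member was 18658, 13553, 12078.5, 16936 and 18927 UMIs at 2, 3, 4, 5 and 6 wk, and a deeper cell reaches a UMI minimum more easily. With every cell thinned to 5000 UMIs the members numbered 35, 109, 35, 5 and 12, and the ratio of 2 to 5 wk was 5.52 (2.15 to 18). With at most 2 primary genes allowed it was 1.76 (1.18 to 2.66). If Amh is counted among the stage genes as well, so that a UMI of 1 of the other three is enough, 383, 829, 403, 155 and 240 cells qualified, or 4.94%, 10.8%, 4.40%, 2.36% and 2.72% of the filtered cells. Under that reading the interval at 4 wk (3.98 to 4.84) overlapped that at 2 wk (4.47 to 5.44) and not that at 5 wk (2.01 to 2.76). Under the rule as used here, after thinning, the interval at 2 wk (0.326% to 0.649%) likewise overlapped that at 4 wk, while those at 4 wk (0.294% to 0.586%) and 5 wk (0.0275% to 0.198%) did not overlap.

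**Figure D1:**
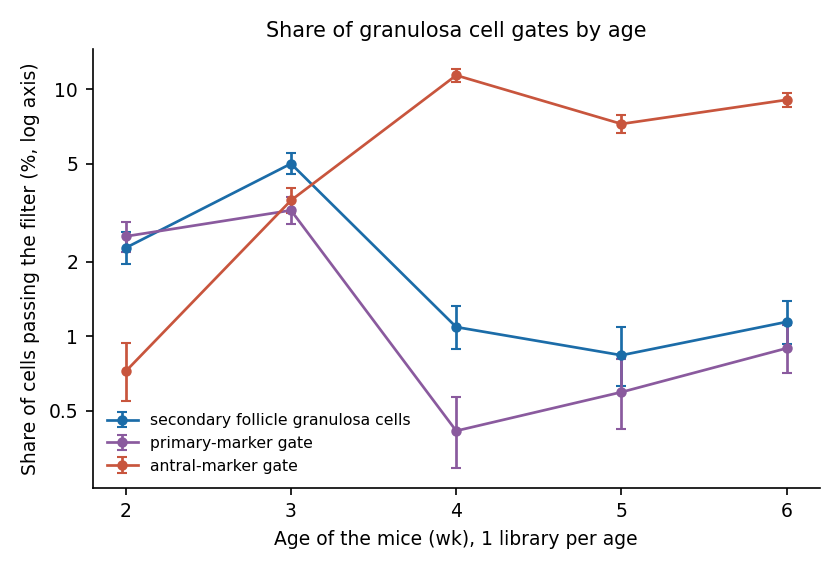
Share of filtered cells (percent, y axis, log scale) that were members, primary-marker cells or antral-marker cells at each age (weeks, x axis), with exact binomial 95% intervals. The member share was highest at 3 wk, at 5%, and lay between 0.839% and 1.14% from 4 to 6 wk.

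Further, 2 comparison groups were drawn with the same filter. Primary-marker cells met the member rule but had at least 4 of the 6 primary genes, and numbered 197, 248, 38, 39 and 79 at 2, 3, 4, 5 and 6 wk. Antral-marker cells had at least 5 UMIs of Inha, at least 3 of Fst, Tdrd5, Nap1l5 and Inhba, at most 1 of the stage genes, at most 3 of the primary genes and, like members, no UMI of Ube2c, Ccnb1, Cyp19a1 or Dcn. Cells with aromatase and most mitotic cells were thus left out of this group too. They numbered 56, 272, 1045, 475 and 800. Their share was 0.722% at 2 wk, 3.55% at 3 wk, 11.4% at 4 wk, 7.24% at 5 wk and 9.07% at 6 wk. Cells with at least 5 UMIs of Dcn, at least 2 of the 3 genes Mmp2, Lum and Mfap4, and no UMI of Ube2c or Ccnb1, here called stromal cells, gave the levels in a cell type outside the follicle. Since the groups were cut from measured genes, levels between them are descriptions.

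The rule genes set the identity of the members and were not evidence for it. Shbg (ENSMUSG00000005202, GRCm38 chromosome 11, 69614804 to 69617905, minus strand) encodes sex hormone-binding globulin and stood at 81.1, 105, 92.7, 69.1 and 61.4 CPM from 2 to 6 wk. Pla2g1b (ENSMUSG00000029522, chromosome 5, 115466262 to 115474722), a secreted phospholipase, stood at 133, 172, 115, 78.1 and 95.7 CPM. Lama3, a laminin chain, was at 11.7 CPM at 2 wk against 24.5, 31.4, 40.0 and 31.9 CPM at the later ages. Both Shbg and Pla2g1b peaked at 3 wk, whereas Lama3 was lowest at 2 wk. Most members had just 2 of the 3 stage genes: all 3 were seen in 16, 46, 7, 7 and 18 cells. A UMI of Shbg was found in 94.4% of members at 2 wk and 82.2% at 6 wk, against 2.79% and 1.29% of stromal cells, whose median depths of 11739 and 10787 UMIs were lower than those of members.

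Amh (ENSMUSG00000035262, chromosome 10, 80805243 to 80807648) encodes anti-Müllerian hormone, which restrains recruitment of other follicles. Its level was 747 CPM at 2 wk, 1131 at 3 wk, 1179 at 4 wk, 951 at 5 wk and 652 at 6 wk. It was highest at 3 and 4 wk and lowest at both ends of the series. The median member held 12, 13, 12, 14 and 12 UMIs of it against the minimum of 5. Member depth was lowest at 3 and 4 wk (medians of 13553 and 12078.5 UMIs), where the same minimum asks for a higher CPM. The order of Amh by age thus cannot be told apart from the rule and depth. Inha (ENSMUSG00000032968, chromosome 1, 75507077 to 75510366), the alpha subunit of inhibin, stood at 3675, 4088, 4462, 3369 and 2845 CPM, and its median of 47 to 62 UMIs per member was far above its own minimum.

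Among the 601 primary-marker cells and the 816 members, the 6 primary genes formed a continuous scale rather than a gap. The limit fell in its middle: 325 members had 3 of the genes, and 332 cells just outside had 4. Of the other members 285 had 2, 197 had 1 and 9 had none. The counts of members with 3 primary genes were 98 of 177 at 2 wk, 124 of 383 at 3 wk, 43 of 100 at 4 wk, 17 of 55 at 5 wk and 43 of 101 at 6 wk, so the 2 wk members lay nearest to the limit.

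Other genes followed this scale in a graded way. Inha averaged 4999 CPM over the libraries with 1 primary gene, 3790 with 2 and 2806 with 3, and 2356, 1905 and 1469 CPM in cells with 4, 5 and 6. Gja1, which encodes the gap junction protein connexin 43, went from 1048, 802 and 597 CPM inside the limit to 452, 437 and 281 CPM outside it. Fst, the activin-binding protein follistatin, likewise went from 358 to 126 CPM across the scale. These 3 genes were highest in the cells with the fewest primary genes. In the other direction, Foxl2, the transcription factor that maintains granulosa identity, stood at 169, 206 and 287 CPM with 1, 2 and 3 primary genes and at 330, 371 and 443 CPM with 4, 5 and 6. Wnt4, a ligand needed for ovarian differentiation, went from 245 to 643 CPM along the same scale, and Kitl, the KIT ligand that granulosa cells present to the oocyte, from 110 to 347 CPM. Amh did neither and stayed between 907 and 1016 CPM. The means rest on all 5 libraries up to 4 primary genes, on 4 libraries at 5 and on 2 at 6, since libraries with fewer than 10 such cells were left out. Their SD over libraries was 1403 CPM for Inha and 53.9 CPM for Wnt4 with 1 primary gene, and 329 CPM for Amh. They describe cells chosen on these same measurements.

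**Figure D2:**
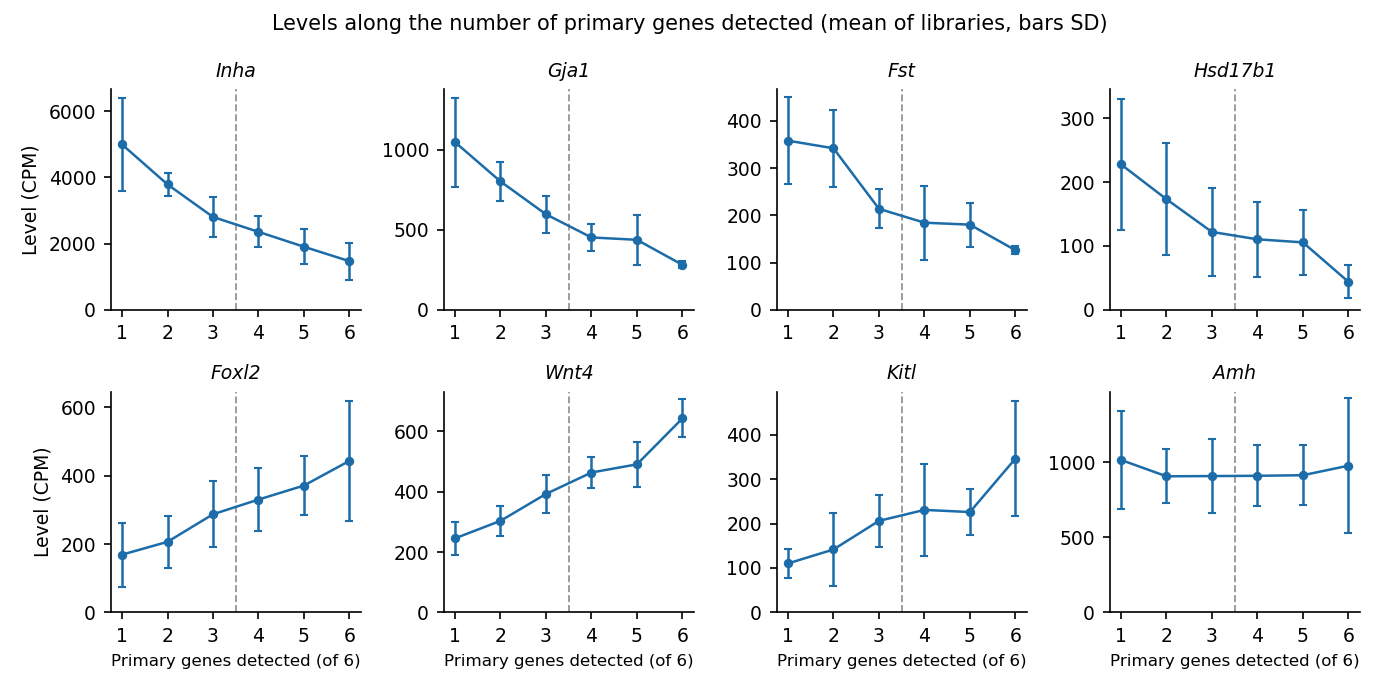
Level (CPM, y axis from 0) of 8 granulosa genes against the number of the 6 primary genes detected per cell (x axis), as the mean over libraries with bars for the SD, and with a dashed line at the member limit. Inha ran from 4999 to 1469 CPM, Wnt4 from 245 to 643 CPM, and Amh stayed between 907 and 1016 CPM.

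Granulosa genes that the rule did not use were present at every age. Nr5a2, the nuclear receptor LRH-1 required for ovulation, stood at 437, 536, 418, 440 and 597 CPM in members against 28.8, 34.0, 60.7, 23.6 and 43.3 CPM in stromal cells. Foxl2 was at 393 CPM at 2 wk and at 178, 165, 175 and 239 CPM later. Its ratio of 2 to 5 wk was 2.24 (1.91 to 2.64), and stromal cells too carried 110 to 188 CPM of it. Foxl2 also rose with the number of primary genes, and 2 wk members lay nearest to that limit. Wt1, a regulator of the early granulosa lineage, was likewise highest at 2 wk, at 221 CPM, and between 138 and 176 CPM afterwards. Gata4 stood at 176, 126, 113, 109 and 83.3 CPM and Gata6 at 261, 175, 154, 148 and 174 CPM, both being factors that drive gonadal genes. Emx2, a homeobox gene of the developing gonad, was at 124, 97.1, 69.0, 34.0 and 56.2 CPM.

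Runx1 ran the other way among the transcription factors. This partner of FOXL2 in the fetal granulosa lineage stood at 56.6, 78.3, 107, 168 and 101 CPM, lowest at 2 wk and highest at 5 wk. Sox4 was at 1029, 1392, 1364, 662 and 639 CPM, higher in each of the first 3 libraries than in the last 2. Of the 17 factors listed, 13 passed the minimum of 200 UMIs and none differed at least 2-fold, the same way, in all 4 ratios between an early (2 or 3 wk) and a late (5 or 6 wk) library. Over all 6512 genes with enough UMIs 0.184% were higher early by this rule and 0.246% higher late. Their median log2 ratio of early to late was 0.43, beside 0.02 for all genes tested.

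Of the hormone receptors named here, that for estrogen was present and those for gonadotropins were scarce. Esr2, the estrogen receptor of granulosa cells, stood at 75.7, 136, 159, 114 and 152 CPM, lowest at 2 wk. Fshr, the follicle-stimulating hormone receptor, was at 8.38, 3.53, 3.07, 4.00 and 8.57 CPM in members, at 7.14 to 23.3 CPM in antral-marker cells and at no more than 0.619 CPM in stromal cells. A UMI of Fshr was found in 23 of 177 members at 2 wk (13.0%) against 0.752% of stromal cells. At 3, 4, 5 and 6 wk it was found in 4.70%, 4.00%, 7.27% and 13.9% of members. Lhcgr, the luteinizing hormone receptor, did not exceed 1.496 CPM and was listed at 0 at 5 and 6 wk, where 3 counts would have been 3.00 and 1.43 CPM.

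In the inhibin, activin and bone morphogenetic protein (BMP) system, 5 of the 15 genes with enough UMIs had both late libraries above both early ones and 3 had the reverse, beside 17.6% and 21.8% of all genes tested. Amhr2, the receptor for anti-Müllerian hormone, stood at 341, 318, 373, 310 and 282 CPM, above the 141 to 220 CPM of antral-marker cells. Fst was at 238, 275, 310, 279 and 418 CPM, below the 449 to 806 CPM of antral-marker cells. Inhbb, the activin beta B subunit, was at 203, 93.3, 133, 48.0 and 68.1 CPM and highest at 2 wk, with 25 of its 48 UMIs at 5 wk in 1 cell.

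Inhba, the beta A subunit, stood at 3.89, 10.2, 65.1, 40.0 and 153 CPM. The 6 wk value rested on few cells: 231 of its 322 UMIs came from 1 cell, and without that library's top cell it was 44.4 CPM. Without the top cell of each of the other libraries the values were 3.01, 8.77, 38.1 and 16.4 CPM at 2, 3, 4 and 5 wk, so both early values stayed below both late ones. Without the 5 wk cell that held 24 of the 40 UMIs there, however, the level at 5 wk was less than 2 times the 10.2 CPM of 3 wk. Bmpr1b and Bmpr2, which encode receptors for BMPs, were at 54.8, 56.3, 65.9, 116 and 90.0 CPM and at 108, 167, 187, 182 and 258 CPM. Both were higher at 5 and 6 wk than at 2 and 3 wk. Of the 15 of 26 listed genes with enough UMIs, Inhba alone was at least 2-fold lower in both early libraries, beside 0.246% of all genes tested, and that count rests on the 5 wk cell.

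Kitl and Gja1 are among the genes through which granulosa cells are known to act on the oocyte. Kitl stood at 261, 187, 108, 107 and 129 CPM, and its ratio of 2 to 5 wk was 2.44 (1.99 to 3.01). Gja1 stood at 548, 694, 882, 925 and 911 CPM, with a ratio of 2 to 5 wk of 0.593 (0.547 to 0.642). The first was thus highest and the second lowest at 2 wk. Kitl also rose and Gja1 fell with the number of primary genes, and 2 wk members lay nearest to that limit. These ratios are of all members, whatever their number of primary genes. At every age Gja1 was higher in members than in primary-marker cells (289 to 546 CPM) and lower than in antral-marker cells (1238 to 1873 CPM).

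Nppc, the C-type natriuretic peptide that holds the oocyte in meiotic arrest, was at 14.1 to 27.6 CPM in members against 35.5 to 179 CPM in antral-marker cells. Its receptor gene Npr2 was at 21.5 to 43.0 CPM. Hes1, a target of Notch signaling, stood at 443, 290, 267, 369 and 306 CPM. Lfng, which modifies Notch receptors, was listed at 0 in all 5 libraries. Of the 14 genes of this list 7 had enough UMIs, and none differed 2-fold in all 4 ratios, beside 0.184% and 0.246% of all genes tested.

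The hedgehog ligands that granulosa cells send to theca precursors were both detected. Ihh stood at 91.3, 84.2, 108, 122 and 132 CPM and Dhh at 36.2, 37.4, 51.3, 47.0 and 44.3 CPM, against at most 6.81 and 4.43 CPM in stromal cells. The target Gli1 showed the reverse, with at most 2.99 CPM in members and 22.5 to 55.5 CPM in stromal cells. Ptch1, receptor and target, was at 70.1 to 113 CPM in members and at 194 to 334 CPM in stromal cells.

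Of the steroid genes, 2 that granulosa cells use were abundant. Hsd3b1, which makes progesterone from pregnenolone, stood at 806, 566, 394, 413 and 529 CPM in members and at 45.4 to 128 CPM in stromal cells. Its ratio of 2 to 5 wk was 1.95 (1.76 to 2.17). Hsd17b1, which makes estradiol from estrone, was at 150, 59.1, 120, 250 and 247 CPM, lowest at 3 wk and highest at 5 and 6 wk. Cyp19a1 was at 0 by the rule. Star, the carrier of cholesterol into mitochondria, did not exceed 6.90 CPM, and Cyp17a1, the theca enzyme for androgens, did not exceed 11.5 CPM. Cyp11a1, the side-chain cleavage enzyme, stood at 52.9 CPM at 4 wk and at no more than 2.38 CPM elsewhere, but 68 of its 69 UMIs at 4 wk came from 1 cell, and it was at 0.779 CPM without it. Of the 15 genes listed 9 had enough UMIs, none differed 2-fold in all 4 ratios, beside the same 0.184% and 0.246%, and the median log2 ratio was 0.38, beside 0.02 for all genes tested.

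Igfbp5 and Igf1 are among the genes that the study compared between follicle waves. In members the first was highest and the second lowest at 2 wk. The study looked at these genes in antral granulosa cells of these same libraries, so their direction here is no independent evidence. It reported Igfbp5 as higher in the earlier wave, but Igf1 at comparable levels between waves. Igfbp5, a binding protein for insulin-like growth factors, stood at 1072, 345, 149, 283 and 269 CPM in members, with a ratio of 2 to 5 wk of 3.78 (3.35 to 4.29). It was highest at 2 wk in antral-marker cells too (687 CPM against 11.4 to 68.3) and in stromal cells (294 CPM against 69.9 to 120). With at most 2 primary genes allowed, the members' ratio was 5.98. Igf1, the growth factor itself, stood at 22.1, 83.3, 210, 180 and 103 CPM in members, 8.14 times as high at 5 wk as at 2 wk (6.17 to 10.8). Stromal cells showed the reverse order at 2 wk, with 290 CPM against 102 to 162 CPM later.

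Wnt4 and Itga6 differed more between members and antral-marker cells after 2 wk than at 2 wk. Wnt4 stood at 368, 314, 330, 303 and 261 CPM in members and at 360, 105, 39.3, 32.1 and 37.9 CPM in antral-marker cells. Members were thus level with antral-marker cells at 2 wk, at 1.02 times their level, and at 3.00, 8.39, 9.44 and 6.89 times from 3 to 6 wk. Itga6, the integrin alpha 6 subunit that binds laminin, stood at 453, 284, 192, 202 and 236 CPM in members and at 280, 70.9, 27.3, 29.5 and 40.2 CPM in antral-marker cells. That was 1.62 times the antral-marker level at 2 wk and 4.01 to 7.04 times afterwards. In both genes the 56 antral-marker cells of 2 wk lay closer to members than those of any later library. These cells also had Pla2g1b more often (66.1% against 18.7% to 34.2% later) and more Kctd14 (837 CPM against 217 to 421). The study counted no antral follicles in whole ovaries up to 2 wk, though it scored granulosa clusters of that age as antral. The 2 wk group may thus differ in stage from the later ones.

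Grb14, an adaptor that dampens insulin receptor signaling, was at 40.7, 50.2, 241, 121 and 168 CPM in members and lower than in antral-marker cells at every age (118, 137, 974, 980 and 820 CPM). It was at least 2-fold lower in both early libraries than in both late ones, in members as in antral-marker cells. Cald1, which binds actin, stood at 30.5, 19.0, 97.3, 39.0 and 98.0 CPM. Without the top cell of each library it was at 21.8, 12.9, 65.8, 23.4 and 69.5 CPM. Mmp11, a matrix protease, was at 46.7, 36.1, 98.9, 60.1 and 59.0 CPM. Cald1 was highest at 4 and 6 wk and Mmp11 at 4 wk, and both were higher in antral-marker cells from 4 wk on.

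**Figure D3:**
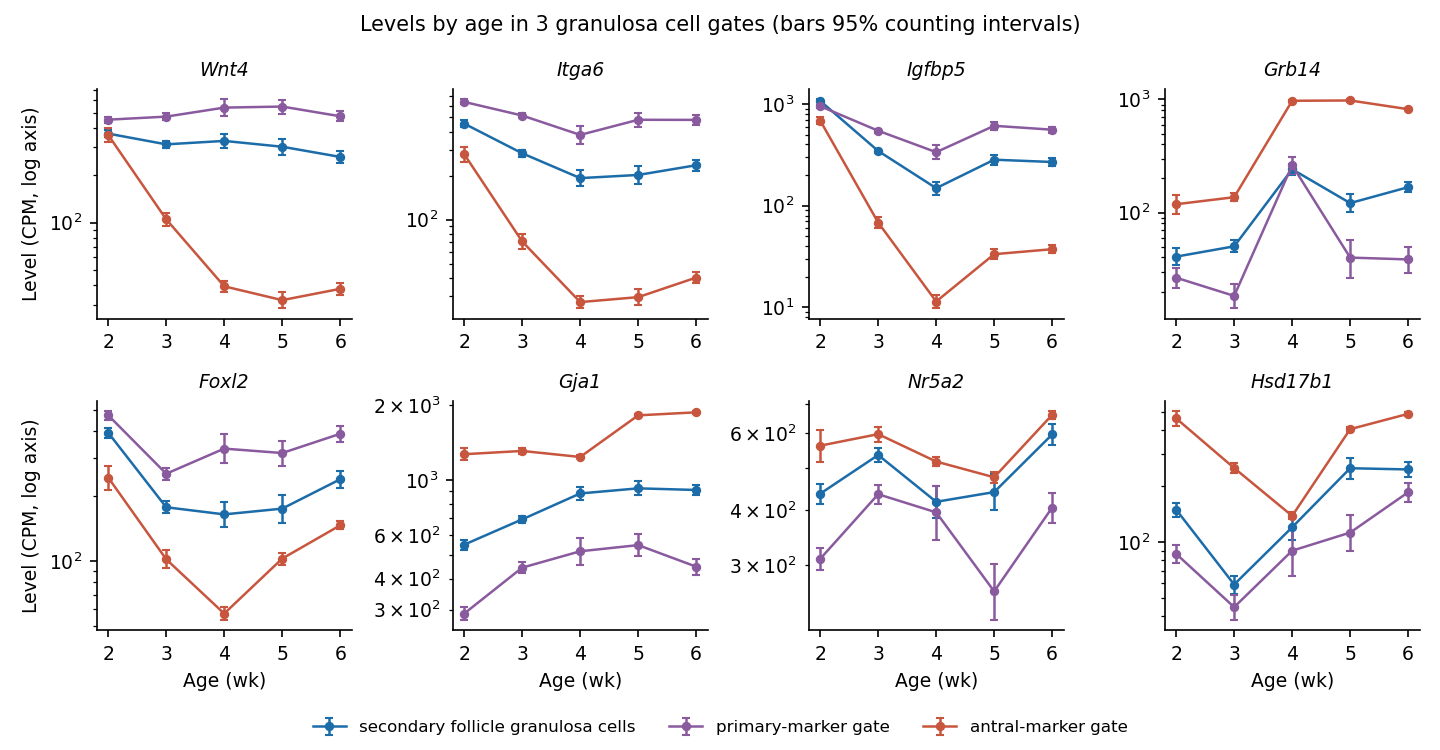
Levels (CPM, y axis, log scale) by age (weeks, x axis) in members, primary-marker and antral-marker cells for 8 genes, with bars for exact Poisson 95% intervals. Wnt4 was at 261 to 368 CPM in members throughout, but at 360 CPM at 2 wk and at 32.1 to 39.3 CPM from 4 wk in antral-marker cells.

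Early and late members were next compared over all genes by size alone. A gene counted when each of the 4 ratios between an early (2 or 3 wk) and a late (5 or 6 wk) library was at least 2-fold. In members 12 of 6512 genes were higher early (0.184%) and 16 were higher late (0.246%). In stromal cells the same rule gave 55 genes higher early (0.474%) and 131 higher late (1.13%) of 11600, and in antral-marker cells 31 (0.345%) and 160 (1.78%) of 8973. The members had the fewest UMIs at 5 wk, 999003 against 19069520 in stromal cells, so fewer genes could be measured, and a low count does not show that the early and late members were alike. Of the 12 genes higher early in members, 11 had enough UMIs in stromal cells and 4 also passed there, which is 33.3% of the first list and 7.27% of the stromal one. Of the 16 genes higher late, 8 did, or 50% and 6.11%.

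Plau led the genes that were higher early. It encodes urokinase, which activates plasmin, and stood at 46.4, 22.7, 5.36, 3.00 and 5.71 CPM in members, while stromal cells ranged from 16.4 to 27.5 CPM with no such order. Its level at 2 wk was 15.4 times that at 5 wk (5.19 to 75.7), where members held 3 UMIs. Cbs, the enzyme that makes cystathionine from homocysteine, stood at 88.0, 88.7, 31.4, 35.0 and 31.9 CPM, high in both early libraries and lower in the other three. Antral-marker cells showed the same step with 173, 169, 37.5, 43.9 and 48.7 CPM, and stromal cells did not, with 8.65 to 14.2 CPM. Nfib, a transcription factor, was at 104, 71.0, 51.3, 31.0 and 27.6 CPM against 160 to 249 CPM in stromal cells.

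Dmrta1 and Tgfbr3l, the second a co-receptor for inhibin B, stood at 28.4, 17.7, 10.7, 7.01 and 4.76 CPM and at 28.4, 27.7, 22.2, 12.0 and 12.9 CPM. Both were highest at 2 wk and lowest in the late libraries. Amd2 and Cacna1d were highest at 2 wk in stromal cells as well. Amd2, a gene for the polyamine enzyme S-adenosylmethionine decarboxylase with a close paralog that could share its reads, was at 37.7, 12.8, 7.66, 3.00 and 4.76 CPM in members and at 26.5, 9.38, 9.33, 1.99 and 2.497 CPM in stromal cells. Cacna1d, a calcium channel subunit, was at 25.7, 24.0, 17.6, 8.01 and 9.99 CPM in members and at 26.7 CPM at 2 wk and 3.51 CPM at 6 wk in stromal cells. Cxcl10, an interferon-induced chemokine, was at 23.9, 39.0, 25.3, 8.01 and 0.476 CPM, with 37 of its 80 UMIs at 2 wk in 1 cell. Without that cell it was at 12.95 CPM at 2 wk, less than 2 times the 5 wk level, and it no longer passed, while stromal cells were lowest at 2 wk, at 11.9 CPM, and highest at 5 wk, at 172 CPM.

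Slc38a5 led the genes that were higher late. This glutamine and serine transporter (ENSMUSG00000031170, chromosome X, 8271133 to 8280179) stood at 7.18, 10.6, 47.5, 52.1 and 58.1 CPM in members, with a ratio of 5 to 2 wk of 7.25 (4.39 to 12.3). Members carried less of it than antral-marker cells at every age (27.3, 112, 268, 364 and 254 CPM), and stromal cells were at 25.4 to 47.2 CPM with no early and late step. Mpped2, a phosphodiesterase, stood at 11.1, 14.5, 38.3, 50.05 and 55.2 CPM, and Thbs4, a matrix thrombospondin, at 2.69, 14.7, 29.1, 79.1 and 43.3 CPM. Rgcc, a regulator of the cell cycle, was at 36.5, 38.7, 80.5, 130 and 90.9 CPM and Fam78a at 11.1, 13.4, 20.7, 30.0 and 37.1 CPM. In all 5 of these genes the 4 wk value lay between the early and the late ones. For Slc38a5, 23 of the 62 UMIs at 4 wk and 34 of the 122 at 6 wk were in 1 cell each, and without those cells the levels were 30.6 and 42.3 CPM.

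AY036118 and Lars2 also passed, at 34.1, 126, 80.5, 451 and 402 CPM and at 14.7, 31.8, 21.5, 104 and 95.7 CPM. Both had the same step in stromal cells, from 47.4 to 831 CPM and from 24.2 to 140 CPM between 2 and 6 wk. Gm42418, a transcript that overlaps ribosomal RNA and was singled out after its values were seen, was at 532, 925, 700, 5802 and 3314 CPM in members. For these genes the step falls between libraries counted with different software versions, which cannot be told apart from age.

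**Figure D4:**
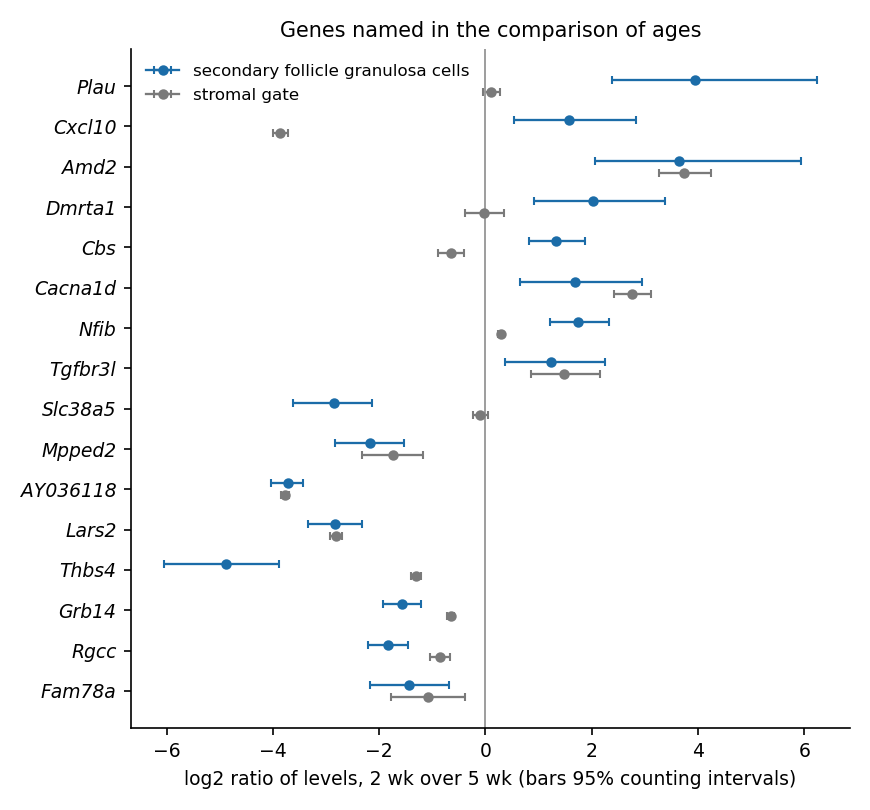
Log2 ratio of the level at 2 wk over that at 5 wk (x axis) for the genes named as higher early or late (y axis), in members and in stromal cells, with bars for 95% counting intervals. For Plau the ratio itself was 15.4 in members and 1.08 in stromal cells and for Slc38a5 0.138 and 0.933, whereas for Lars2 it was 0.141 and 0.143.

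Genes of DNA replication had a higher summed level in late members. The 18 listed S phase genes, which are switched on as DNA is copied, summed to 913 CPM at 2 wk (881 to 946), 993 at 3 wk (967 to 1020), 1130 at 4 wk (1073 to 1189), 1151 at 5 wk (1086 to 1220) and 1168 at 6 wk (1122 to 1215). The sum at 5 wk was 1.26 times that at 2 wk (1.18 to 1.35) and the sum at 6 wk 1.28 times (1.21 to 1.35). In the other groups the ratio of 5 to 2 wk lay below 1: in stromal cells the sum at 5 wk was 0.694 times that at 2 wk (0.677 to 0.712), in antral-marker cells 0.758 times (0.709 to 0.811) and in primary-marker cells 0.828 times (0.754 to 0.907). At 6 wk the ratios to 2 wk were 0.712 (0.697 to 0.728), 0.742 (0.695 to 0.792) and 0.962, the last with an interval that included no difference (0.903 to 1.02). Antral-marker cells were highest at 3 wk, at 1448 CPM, above members of that age. Of the 16 genes with enough UMIs, 9 had both late libraries above both early ones in members, beside 17.6% of all genes tested, and 1 had the reverse, beside 21.8%. In stromal cells none of 18 had the first order, beside 21.2%, and 15 had the second, beside 20.4%. None of the 16 differed 2-fold in all 4 ratios in members, and the median log2 ratio of early to late was -0.20.

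Hells, a chromatin remodeler of dividing cells, stood at 63.7, 69.2, 62.8, 107 and 117 CPM in members and at 32.3, 28.7, 20.02, 16.4 and 17.0 CPM in stromal cells. Pcna, the sliding clamp of DNA polymerase, stood at 33.5, 31.6, 37.6, 62.1 and 55.2 CPM in members and at 39.1, 37.9, 29.7, 30.8 and 33.2 CPM in stromal cells. Both were higher late in members and higher early in stromal cells. At 5 wk 22 of the 107 UMIs of Hells in members came from 1 cell, and without it the level was 88.0 CPM. Uhrf1, which carries DNA methylation through replication, was at 12.3, 25.7, 29.1, 38.0 and 33.3 CPM, with 17 of its 38 UMIs at 5 wk in 1 cell and 21.6 CPM without it. Ung, a DNA repair enzyme, was at 37.1, 43.1, 57.5, 69.1 and 64.3 CPM. The 6 Mcm genes of the replicative helicase did not all share this order: Mcm6 stood at 92.8, 110, 135, 103 and 116 CPM, lower at 5 wk than at 3 wk.

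The sum for members with at most 2 primary genes was 917, 1016, 1366, 1323 and 1095 CPM, so the lowest library was again that of 2 wk. After thinning to 5000 UMIs, with 5 members left at 5 wk, the sum at 5 wk was 0.686 times that at 2 wk (0.410 to 1.09), the sum at 6 wk was 1.301 times (1.005 to 1.67), and the lowest library was that of 3 wk, at 771 CPM. The mitotic genes Ube2c and Ccnb1 were at 0 by the rule, which keeps most cells in mitosis out. Top2a, the topoisomerase of condensing chromosomes, remained at 30.5, 44.3, 42.9, 35.0 and 56.6 CPM and Mki67 at 1.197, 3.35, 10.7, 17.0 and 4.76 CPM. Leaving out the top cell of each library gave 28.3, 41.2, 32.2, 22.6 and 43.5 CPM for Top2a. For Mki67 it gave 0.902, 2.05, 5.49, 12.3 and 2.89 CPM. Ccnd2, the D-type cyclin that follicle-stimulating hormone induces in granulosa cells, stood at 493, 613, 828, 626 and 683 CPM, lowest at 2 wk and highest at 4 wk.

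**Figure D5:**
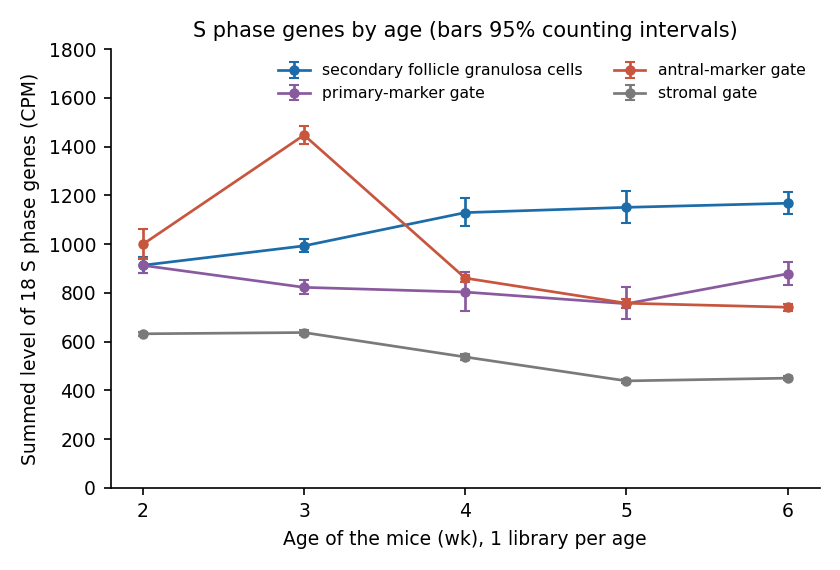
Summed level of 18 S phase genes (CPM, y axis) by age (weeks, x axis) in members, primary-marker, antral-marker and stromal cells, with exact Poisson 95% intervals. Members went from 913 CPM at 2 wk to 1168 CPM at 6 wk, while stromal cells went from 632 to 450 CPM.

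Members were compared with primary-marker cells library by library. Of 8492 genes tested 2 were at least 2-fold higher in members in each of the 5 libraries (0.0236%) and 10 were lower (0.118%). Since a gene must pass in all 5 libraries, some with few cells, these counts do not show that the groups were otherwise alike. Pparg, a nuclear receptor for fatty acids, stood at 8.38, 10.2, 12.3, 22.0 and 24.7 CPM in members and at 1.75 to 4.56 CPM in primary-marker cells. Antral-marker cells carried more still, 29.3 to 52.7 CPM. Car14, a membrane carbonic anhydrase, was at 93.7, 70.3, 57.5, 120 and 196 CPM in members, at 16.0 to 86.0 CPM in primary-marker cells and at 96.6 to 264 CPM in antral-marker cells. Both genes thus ordered the 3 groups alike at every age. Ntng1, Ippk, Sdf2l1, Csmd1, Hs3st1 and Htra3 came next, each higher in members in every library but with a lowest ratio of 1.66 to 1.92.

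Of the 10 lower genes 5 were primary genes of the rule. The others were Rpp25, Gstm6, Hs3st3b1, Sulf1 and Apoe. Apoe, a carrier of lipids, was at 97.9, 134, 144, 95.1 and 119 CPM in members against 222, 290, 302, 361 and 326 CPM in primary-marker cells, and at 295 to 1731 CPM in stromal cells. Gstm6, a glutathione transferase of a family of close paralogs whose reads may be shared, was at 56.9, 21.8, 9.96, 3.00 and 23.8 CPM against 137, 65.6, 28.0, 42.8 and 59.9 CPM. Sulf1, which trims sulfate from heparan sulfate, was at 5.71 to 9.01 CPM against 15.2 to 32.8 CPM.

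Against antral-marker cells more genes passed. Of 10255 genes 42 were at least 2-fold higher in members in all 5 libraries (0.41%) and 53 were lower (0.517%). Lama3 and Shbg of the rule and Wnt6 were among the higher ones. Outside the rule, Pln, a brake on the calcium pump of the endoplasmic reticulum, led with 43.1, 24.5, 7.66, 11.0 and 18.1 CPM against 8.09, 2.18, 1.43, 1.91 and 1.32 CPM. Aard stood at 562, 114, 74.3, 112 and 119 CPM against 170, 28.3, 17.5, 23.6 and 30.3 CPM. Gatm, the first enzyme of creatine synthesis, stood at 363, 64.7, 60.5, 105 and 131 CPM against 112, 8.96, 6.95, 8.09 and 13.3 CPM. Both were highest at 2 wk in either group, when members stood at 3.30 and 3.24 times the antral-marker level. Aqp12, Tgfbr3l, Mapk13, Tub and Scube1 made up the rest of the first 8.

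The genes lower in members were led by Adamts5, a protease that cuts versican, at 1.12 to 9.52 CPM against 10.9 to 73.6 CPM. Itga2, an integrin subunit for collagen, was at 1.197 to 7.66 CPM against 8.09 to 57.4 CPM. Rgs13, which shortens G protein signals, was at 0.898 to 9.04 CPM against 6.07 to 41.5 CPM. Lrrtm3, Phex, Art4 and Robo2 were each at no more than 3.83 CPM in members. Bmp2 was at 1.001 to 12.3 CPM against 5.06 to 82.3 CPM. Inhba and Nap1l5 also passed, but they had helped to choose the antral-marker cells.

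Of the matrix and adhesion genes, Serpine2, an inhibitor of plasminogen activators, stood at 1188, 1022, 1134, 1105 and 1091 CPM against 143 to 211 CPM in stromal cells. Vcan, the proteoglycan versican, was at 248, 140, 118, 187 and 162 CPM. The laminin chain gene Lama1 stood at 56.3, 63.0, 94.3, 68.1 and 63.3 CPM, above its 10.9 to 23.1 CPM in stromal cells. Lamb3, another laminin chain gene, was at 0 in all 5 libraries. Among collagen IV chains, Col4a1 was at 4.00 to 17.4 CPM in members and at 544 to 963 CPM in stromal cells, and Col4a4 at 20.02 to 28.4 CPM against 131 to 418 CPM. Col4a5 was the most abundant of the 6 chains in members, at 36.0 to 48.0 CPM, and stood at 20.9 to 62.0 CPM in stromal cells. Of 28 basement membrane and adhesion genes 13 had enough UMIs, none differed 2-fold in all 4 ratios, beside 0.184% and 0.246% of all genes tested, and the median log2 ratio was 0.21.

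Genes of cell death showed no common direction with age. Bcl2, which protects against apoptosis, stood at 85.3, 72.0, 37.6, 48.0 and 60.9 CPM in members and at 56.7, 20.1, 11.1, 9.21 and 14.4 CPM in antral-marker cells. Bcl2l11, the death-promoting factor BIM, was at 15.3, 18.2, 23.8, 44.0 and 28.1 CPM, lowest at 2 wk. Bax stayed between 114 and 131 CPM. None of the 8 of 13 genes with enough UMIs differed 2-fold in all 4 ratios, beside 0.184% and 0.246% of all genes tested, and the median log2 ratio was 0.17. Of 16 cholesterol genes 10 had enough UMIs, none differed 2-fold in all 4 ratios, and the median was -0.23.

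Immediate-early and heat shock genes, which respond to dissociation among other stresses, differed between libraries in members and in the other groups. The 14 genes summed to 7885, 11166, 11808, 14268 and 8654 CPM in members and to 16621, 23479, 22751, 25115 and 18556 CPM in stromal cells. Both groups were lowest at 2 wk and highest at 5 wk, with the order of 3 and 4 wk reversed between them. Antral-marker cells were at 10022, 13613, 11985, 13714 and 9931 CPM, with the sum at 6 wk 0.991 times that at 2 wk (0.971 to 1.01). Library and age cannot be told apart here. Jun stood at 1137, 2542, 2826, 3058 and 1360 CPM in members, and Fos at 1238, 1046, 1298, 2349 and 1224 CPM. The part of this in the other age differences was not tested.

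Markers of other cells were low in members. Of 11 oocyte genes 8, 8, 7, 11 and 10 were at 0 from 2 to 6 wk and the sum did not exceed 3.07 CPM. Zp3, a coat protein of the egg, was at 0 in all 5 libraries, where 3 counts would have been 0.558 to 3.00 CPM. The 7 stromal genes summed to 81.7, 33.7, 55.9, 15.02 and 31.9 CPM, with Dcn at 0 by the rule and Col1a2 the most abundant at 2 wk, at 40.1 CPM. The 7 theca genes summed to 17.1, 12.1, 87.4, 21.02 and 24.3 CPM with Insl3 at 0 in all libraries, and the 4 wk value came mainly from the single cell with Cyp11a1. Endothelial genes summed to 3.90 to 8.01 CPM and blood genes to 12.3 CPM at 2 wk and at most 1.90 CPM later. The 2 wk value rested on very few cells: all 11 UMIs of Tyrobp and all 10 of Fcer1g were in 1 cell each. Of 5 epithelial genes Lgals7 made up nearly all of the sum of 11.0 to 38.3 CPM.

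Smooth muscle genes were the exception, with sums of 188, 49.6, 70.5, 11.0 and 223 CPM. At 2 and 6 wk they rested largely on single cells: 260 of 364 UMIs of Acta2 at 2 wk and 174 of 209 at 6 wk came from 1 cell each, and without those cells Acta2 was at 31.4 and 16.9 CPM. At 3 wk the 82 UMIs of Acta2 were spread over 65 of 383 cells, with at most 4 in 1 cell. A doublet caller marked 7 of the 816 members, 2, 1, 3, 0 and 1 by age, and 1487 of all 48163 cells. Libraries shared 273 cell barcodes between pairs, and no barcode belonged to members in both libraries of a pair.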

How the data were processed

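The data are single-cell RNA libraries of ovaries, 1 for each week of age from 2 to 6 wk, with 93438618 to 144609431 UMIs each. The authors deposited filtered matrices of UMI counts per gene and cell, made with Cell Ranger (3.1.0 for the libraries of 2, 3 and 4 wk and 6.0.1 for those of 5 and 6 wk, per the file headers) against mm10 with 31053 genes, and went on in Seurat 4.1.0. No cell annotation was used here. Members were chosen cell by cell with the rule in the text, without clustering. The members, comparison groups and gene lists were chosen with earlier results of these data known.

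UMIs of the cells of a group were summed per library and divided by their total, in Python 3.11.15 with numpy 2.4.6, scipy 1.17.1 and pandas 2.3.3. A gene entered a comparison with at least 200 UMIs over the groups compared. In the ratios of the fold rules a denominator of 0 counts was set to 3 counts. Genes were named from fixed lists where they reached 20 CPM in members in some library or were listed at 0. For each comparison and direction the 8 genes with the largest lowest ratio were named too. That ranking left out ribosomal, mitochondrial and rule genes and the genes that chose antral-marker cells. Genes with Gm numbers, Rik or clone names, or a symbol shared by several entries, were left out of it as well. Fshr, Star, Cyp17a1, Mki67, Gli1, Lhcgr, Col4a1, Bmp2, Tyrobp and Fcer1g fall outside this rule and were named after their values were seen. Exact 95% intervals were computed for counts and shares. Doublets were called with Scrublet in scanpy 1.11.5 and kept. Coordinates are those of GENCODE M21 on GRCm38. The calculations were tested on simulated data. Alternatives changed the UMI minimums, the primary gene limit, the filters, the depth, the fold and the libraries used. Some listed genes are not reported here.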

Additional observations from a re-analysis of the deposited data

Results flagged for a closer look

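Hells and Pcna stood out because early and late libraries differed in opposite directions in members and in stromal cells, with the counting intervals of all 4 ratios in each group leaving out no difference. In members Hells was higher at 5 and 6 wk, with a lowest ratio of 1.55, and in stromal cells it was higher at 2 and 3 wk, with a lowest ratio of 1.68. In members Pcna was higher at 5 and 6 wk, with a lowest ratio of 1.65, and in stromal cells it was higher at 2 and 3 wk, with a lowest ratio of 1.14. Without the 1 cell that held 22 of the 107 Hells UMIs of 5 wk members, their level was 88.0 CPM in place of 107 CPM, beside 69.2 CPM at 3 wk. With 1 library per age neither difference was tested.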

How the results depend on the processing

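With 1 library per age the age comparisons have no replicates, the intervals cover counting error only, and the 5 wk members held 999003 UMIs in 55 cells. No paired analysis of ages was possible because each age has 1 library. Groups of cells were compared within each of the 5 libraries, without a test, since measured genes chose them.

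The ratio of the member share at 2 to 5 wk was 1.76 with at most 2 primary genes and 5.52 after thinning to 5000 UMIs. The S phase sum at 5 over 2 wk was 1.18 and at 6 over 2 wk 1.36 with under 10% mitochondrial UMIs and at least 1500 genes, 1.44 and 1.19 with at most 2 primary genes, and 0.686 and 1.301 after thinning. These alternatives of the S phase sum, and leaving out libraries, were chosen after seeing the data. The causes were not tested.

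Counts of genes are given as higher and lower. Against primary-marker cells 4 were higher with Amh and Inha at 3 UMIs or more. At 10 UMIs or more 0 were higher and 6 lower, in a comparison with no test. With at most 2 primary genes 4 were higher and 21 lower than in primary-marker cells, and 27 lower than in antral-marker cells. After thinning, which left 499 genes with enough UMIs for the ages, 2 were higher early and 1 late, 0 and 0 differed from primary-marker cells, and 17 were lower than in antral-marker cells. With a minimum of 50 UMIs 36 were higher early and 46 late, and 16 lower than in primary-marker cells. With 500 UMIs the counts were 3 early and 8 late, 1 and 6 against primary-marker cells, and 24 higher than in antral-marker cells. At 1.5-fold they were 65 early and 55 late, 15 and 40 against primary-marker cells, and 143 and 142 against antral-marker cells.

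Leaving out 1 library gave 15 to 69 genes higher early, with 52 without 3 wk, 25 without 5 wk and 69 without 6 wk, and 18 to 52 higher late, with 52 without 2 wk and 31 without 3 wk. Against primary-marker cells it gave 1 to 4 higher, with 4 without 4 wk and 1 without 5 or 6 wk, and 6 to 17 lower, with 6 without 3 wk and 17 without 4 wk. Against antral-marker cells it gave 39 to 93 higher and 55 to 98 lower, both highest without 2 wk.

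Of named genes, the ratio of 2 to 5 wk turned for Atf3, to 1.01, with at most 2 primary genes, and for Fos, Hspa8 and Kctd14, to 1.94, 1.03 and 0.739, after thinning. With at most 2 primary genes 37 of 58 named genes kept a ratio inside their interval, against 93 of 100 with the minimum of 3 UMIs, 66 of 75 with 10, 98 of 98 without called doublets and 1 of 9 after thinning.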
